A study of Mus musculus with 4 samples.

Results

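The core genes of the circadian clock were examined in MLO-Y4 cells, a mouse cell line with osteocyte-like features, after mechanical loading. The members were the 10 genes *Clock*, *Arntl*, *Per1*, *Per2*, *Per3*, *Cry1*, *Cry2*, *Nr1d1*, *Nr1d2* and *Dbp*, taken by gene name from a table of 55450 genes. Each name had 1 row, and all 10 genes were among the 16269 genes that passed a filter on low counts. RNA-seq was performed on 2 unloaded and 2 loaded cultures of the same line, both listed as wild type. MLO-Y4 is a single immortalized line, made from bone of a mouse carrying a viral T antigen under the osteocalcin promoter. Loaded cells were grown on collagen-coated plates with a silicone rubber base and stretched equiaxially for 12 h at 0.5 Hz and 20% strain. Unloaded cells were kept for 12 h in the incubator of the same device, on ordinary culture plates. Loading and the kind of plate therefore cannot be told apart. The sample records do not say whether the clocks of the cultures were synchronized beforehand, and 1 time point was sampled, so a shift in phase, a change in amplitude and a change in mean level cannot be told apart either. In bulk RNA, fewer cells expressing a gene and less RNA per cell cannot be told apart.

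The circadian clock is a feedback loop of transcription and translation that runs in most mammalian cells, those of bone included, with a period of about a day. CLOCK and BMAL1, the latter encoded by *Arntl*, pair and bind E-box elements to switch on the *Per* and *Cry* genes, whose proteins return to the nucleus and block the pair. In a coupled loop the pair also switches on *Nr1d1* and *Nr1d2*, whose REV-ERB proteins repress *Arntl* through ROR elements, and *Dbp*, whose protein activates genes with a D-box. In a population of cells in step with each other, *Arntl* RNA peaks at nearly the opposite time of day to *Nr1d1*, *Dbp* and *Per* RNA. The comparison of loaded with unloaded cells asked whether these activators and repressors moved in opposite directions.

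Total counts per library ranged from 28941994 to 32185693, and 3 counts, taken as the floor, correspond to 0.093 to 0.103 CPM, the count per unit of library size, scaled by the trimmed mean of M-values (TMM). Across genes, the median absolute log2 difference between replicates was 0.16 in unloaded and 0.17 in loaded cells. The labels do not say whether replicates came from separate passages of the line, so a p-value measures only the spread between these cultures. Markers of the osteoblast lineage such as *Col1a1*, *Gja1*, *Runx2* and *Phex* were expressed, but *Sp7*, *Alpl* and *Bglap*, of the same lineage, had at most 25 counts in any library. Likewise, the mature osteocyte markers *Sost*, *Mepe*, *Dmp1* and *Fgf23* had between 0 and 14 counts in every library. Adipocyte markers had at most 4 counts, and the leukocyte markers *Ptprc*, *Adgre1*, *Itgam* and *Cd3e* likewise. *Csf1r*, the receptor for a macrophage growth factor, had 45688 to 50270 counts with a log2 fold change of -0.02. *Cd68*, a lysosomal protein of macrophages and other cells, had 162 and 141 counts in the unloaded and 99 and 84 counts in the loaded libraries (edgeR adjusted p = 0.216). Summed over the 7 leukocyte markers, levels ranged from 1579 to 1589 CPM in the unloaded and from 1561 to 1565 CPM in the loaded libraries, nearly all of it *Csf1r*. The 4 endothelial markers summed to 1.71 to 3.37 CPM. Of these, *Kdr*, a receptor for vascular growth factor, had 0 and 0 counts in the unloaded and 17 and 14 counts in the loaded libraries (edgeR adjusted p = 0.135), whereas *Cdh5* and *Pecam1* overlapped between the groups. *Pdpn*, a marker of early osteocytes, had 143 and 151 against 215 and 228 CPM (log2 fold change 0.59, edgeR adjusted p = 0.0334, DESeq2 adjusted p = 2.2e-08). The part of these markers in the results on clock genes was not tested.

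The study called genes at an adjusted p under 0.01 with DESeq2. At that threshold no clock gene passed edgeR's quasi-likelihood F test across all tested genes. In edgeR's test 0.0983% of genes passed (0.0123% higher and 0.0861% lower in loaded cells). None of the 10 passed at 0.05 either, against 0.904% of all tested genes. Without adjustment, 3 of the 10 genes had a p under 0.05, against 14.3% of all tested genes. Of these, *Nr1d1* and *Cry1* had higher values in loaded cells (2 genes, against 6.88% of all tested) and *Per2* had lower values (1 gene, against 7.46%). With DESeq2, which the study used to call genes, 1 of the 10 genes, *Nr1d1*, had an adjusted p under 0.01. This compares with 2.91% of the 12484 genes that received an adjusted p from that tool (1.36% higher and 1.55% lower). *Nr1d1* was also the only clock gene under 0.05 with DESeq2, against 4.88%.

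In 6 of the 10 genes the loaded and unloaded libraries did not overlap in CPM, against 46.6% of all tested genes, so this separation was common in these data. *Arntl*, *Per1*, *Cry1* and *Nr1d1* lay higher in both loaded libraries (4 genes, against 22.1% of all tested), and *Per2* and *Per3* lay lower (2 genes, against 24.5%). The log2 fold change (loaded over unloaded) was above 0 in 7 of the 10 genes, against 48.5% of all tested genes, and below 0 in 3, against 51.5%. Its median was 0.17 over the clock genes and -0.01 over all tested genes.

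**Figure D1:**
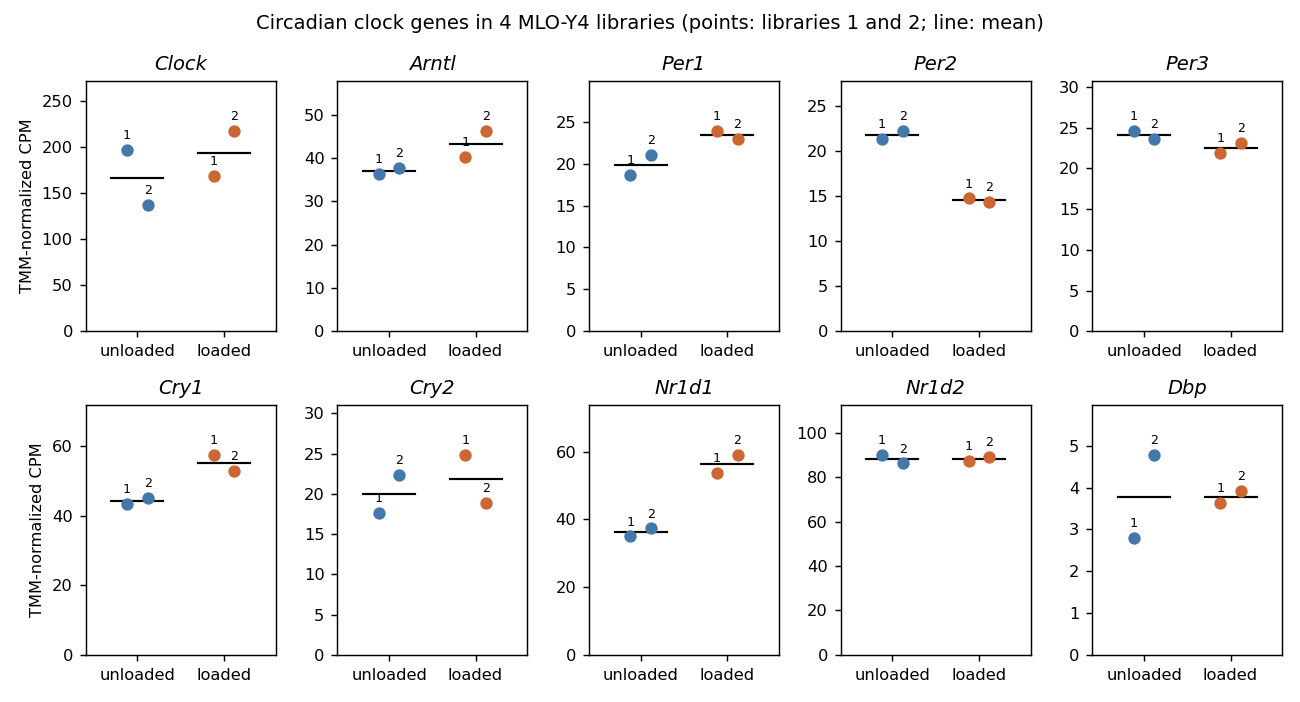
Expression of each clock gene in every library, as TMM-normalized CPM on an axis that starts at 0 and differs between panels. Points are single libraries, numbered by replicate, and the line is the group mean. *Nr1d1* lay at 35.0 and 37.3 CPM in unloaded and at 53.7 and 59.1 CPM in loaded cells, *Per2* at 21.3 and 22.2 CPM against 14.7 and 14.3 CPM, and the groups overlapped for *Clock*, *Cry2*, *Nr1d2* and *Dbp*.

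The activators were *Clock* and *Arntl*. *Clock* (ENSMUSG00000029238.11) spans chromosome 5, bases 76209868 to 76304792, minus strand (GRCm38, GENCODE M21, as for the other genes). It encodes the histone acetyltransferase subunit of the activating pair. It had 5718 and 4165 counts in the unloaded and 5457 and 6488 counts in the loaded libraries, which were 197, 137, 169 and 218 CPM in that order. The unloaded replicates were farther apart, at 0.52 on the log2 scale, than the group means, and the groups overlapped. The log2 fold change was 0.21 (standard error 0.192, 95% interval -0.26 to 0.68, edgeR adjusted p = 0.678), and leaving out unloaded replicate 2 turned it to -0.03. The pseudogene *Ube2n-ps1*, with 161 to 199 counts, and *Gm43658*, with at most 27, lie within *Clock* on the same strand and share 0 of its exon bases.

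*Arntl* (ENSMUSG00000055116.8), at chromosome 7, bases 113207465 to 113314126, plus strand, encodes BMAL1, the partner without which the loop does not run. It had 1054 and 1141 counts in the unloaded and 1299 and 1377 counts in the loaded libraries, or 36.3, 37.7, 40.3 and 46.2 CPM. Both loaded libraries lay above both unloaded libraries. The log2 fold change of 0.23 (standard error 0.109, 95% interval -0.04 to 0.49) did not pass the test (edgeR adjusted p = 0.416), and it was 0.12 without loaded replicate 2. An antisense gene, *Gm45355*, shares 33 exon bases with *Arntl* and had at most 3 counts. The element through which REV-ERB and ROR proteins compete for this gene was found in the promoter window of its second listed start. Promoter windows, taken from RefSeq (GRCm38.p6), cover 250 bases before to 50 bases after each annotated start, and the ROR element was searched on both strands. It occurred in 0.219% of 32851 such windows of all genes, and in 1 of the 9 clock genes with a window, *Arntl*. These 9 genes had 13 windows, and a gene counted if any of its windows matched. A count of genes and a percentage of windows are therefore unlike measures, here and for the elements below. It is shown in capitals in the stretch chr7:113207528-113207557 of the plus strand, at bases 28 to 37 from the start.
*Arntl* ROR element: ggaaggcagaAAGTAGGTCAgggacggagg

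The period genes encode the PER proteins, which carry the repressor complex into the nucleus and set its timing, and their values differed in direction. *Per2* (ENSMUSG00000055866.9), at chromosome 1, bases 91415982 to 91459324, minus strand, had 620 and 672 counts in the unloaded and 475 and 426 counts in the loaded libraries. Its level was 21.8 ± 0.584 CPM (SD, n = 2) in unloaded and 14.5 ± 0.303 CPM (SD, n = 2) in loaded cells, 0.667 times the unloaded level. Both loaded libraries lay well below both unloaded ones, and replicates differed by 0.05 and 0.04 on the log2 scale. Its log2 fold change was -0.58 (standard error 0.117, 95% interval -0.87 to -0.30). It had an unadjusted p = 0.0024 in edgeR's test, an adjusted p = 0.111 in the same test and an adjusted p = 0.078 with DESeq2, so the difference did not pass the threshold.

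*Per1* (ENSMUSG00000020893.17), at chromosome 11, bases 69095217 to 69109960, plus strand, is the period gene that also answers quickly to cAMP and glucocorticoid signals. It had 542 and 637 counts in the unloaded and 771 and 684 counts in the loaded libraries, or 18.7, 21.02, 23.9 and 23.0 CPM. The loaded values lay above the unloaded values, and loaded over unloaded gave 0.24 on the log2 scale (standard error 0.118, 95% interval -0.05 to 0.53, edgeR adjusted p = 0.428). *Per3* (ENSMUSG00000028957.12), at chromosome 4, bases 151003652 to 151044665, minus strand, is dispensable for the core rhythm. It had 714, 716, 708 and 689 counts in the same order, or 24.6, 23.6, 21.9 and 23.1 CPM, a log2 fold change of -0.10 (95% interval -0.36 to 0.16, edgeR adjusted p = 0.74). The nearest libraries of its groups were less than 1 CPM apart, and the fold change was -0.06 on the log2 scale without unloaded replicate 1 or loaded replicate 1. *Camta1* overlaps *Per3* on the same strand and shares 0 exon bases with it.

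The cryptochrome genes encode CRY proteins, which bind CLOCK and BMAL1 directly and are the strongest repressors of the loop. *Cry1* (ENSMUSG00000020038.10), at chromosome 10, bases 85131700 to 85185064, minus strand, had 1258 and 1367 counts in the unloaded and 1853 and 1576 counts in the loaded libraries. Its level was 44.2 ± 1.27 CPM (SD, n = 2) in unloaded and 55.2 ± 3.22 CPM (SD, n = 2) in loaded cells, and the groups did not overlap. Its log2 fold change was 0.32 (standard error 0.0981, 95% interval 0.08 to 0.56), with an unadjusted p = 0.0171 in edgeR's test and an adjusted p = 0.227 in the same test. *Cry2* (ENSMUSG00000068742.11), at chromosome 2, bases 92403646 to 92434043, minus strand, had 511, 676, 802 and 563 counts, or 17.6, 22.3, 24.9 and 18.9 CPM. These values overlapped, replicates differed by 0.34 and 0.39 on the log2 scale, and the log2 fold change was 0.13 (95% interval -0.32 to 0.58, edgeR adjusted p = 0.804). A noncoding transcript on the opposite strand, *D930015M05Rik*, shares 295 exon bases with *Cry2* and had at most 11 counts in any library.

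The E-box and D-box elements that tie these repressors to the activators and to DBP are shown for *Cry1*, *Per1* and *Per3*, the PER and CRY genes whose windows held an E-box or a D-box. Only the 250 bases before the RefSeq start are printed, 5′ to 3′ on the strand of the gene. Capitals mark an E-box (CACGTG, found in 7.15% of all windows), an E-prime box (CACGTT or its complement AACGTG, in 4.68%) or a D-box (TTATGTAA, in 0.938%), searched on both strands. E-box and E-prime box share all letters but the last and cannot match at the same bases. The *Cry1* stretch is chr10:85185055-85185304 on the minus strand, *Per1* is chr11:69098699-69098948 on the plus strand and *Per3* is chr4:151044666-151044915 on the minus strand. In GENCODE M21 the *Per1* stretch lies inside the span of the gene. The last bases of the *Cry1* stretch fall in its first exon, and the *Per3* stretch lies just before the gene.
*Cry1*: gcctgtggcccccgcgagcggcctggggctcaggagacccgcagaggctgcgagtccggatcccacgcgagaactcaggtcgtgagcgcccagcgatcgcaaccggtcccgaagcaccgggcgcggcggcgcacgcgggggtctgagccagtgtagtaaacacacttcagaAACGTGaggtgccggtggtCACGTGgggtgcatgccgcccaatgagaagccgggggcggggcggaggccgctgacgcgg
*Per1*: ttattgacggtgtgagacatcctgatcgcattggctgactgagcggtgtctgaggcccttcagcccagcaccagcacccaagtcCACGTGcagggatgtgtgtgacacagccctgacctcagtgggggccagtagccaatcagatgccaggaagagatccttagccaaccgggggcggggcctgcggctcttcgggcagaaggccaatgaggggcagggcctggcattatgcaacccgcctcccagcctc
*Per3*: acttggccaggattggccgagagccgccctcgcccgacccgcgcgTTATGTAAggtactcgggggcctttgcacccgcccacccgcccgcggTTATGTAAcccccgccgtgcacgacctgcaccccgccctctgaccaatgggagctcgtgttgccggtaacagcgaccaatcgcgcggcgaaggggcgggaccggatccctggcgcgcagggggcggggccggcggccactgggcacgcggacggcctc
The E-box lay at bases -60 to -55 in *Cry1* and at bases -166 to -161 from the first listed start of *Per1*. Base -1 is the last before the start. The window of the other listed *Per1* start held none of the elements searched. *Per3* held 2 D-boxes, at bases -205 to -198 and -158 to -151. Of the 9 clock genes with a window, 2 held an E-box, 3 an E-prime box (*Cry1*, *Cry2* and *Nr1d1*), 1 a D-box and none the cAMP response element TGACGTCA, which occurred in 1.79% of all windows. *Per2* had no entry among the windows. The antioxidant response element, to which NRF2 binds, was searched as TGACNNNGC. It occurred in at least 1 window of 4 of the 9 clock genes, *Cry1*, *Cry2*, *Nr1d2* and *Per1*. Of single windows of all genes 12.4% held it, a share per window that is not to be set against the count of genes, which had 13 windows. These matches are letters in a window and were not measured as binding sites here.

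Of the REV-ERB genes, *Nr1d1* stood out among the 10 and *Nr1d2* hardly differed. *Nr1d1* (ENSMUSG00000020889.11), at chromosome 11, bases 98767932 to 98775333, minus strand, encodes REV-ERBα, a heme-binding nuclear receptor that represses *Arntl*. It had 1016 and 1131 counts in the unloaded and 1733 and 1761 counts in the loaded libraries. Its level was 36.2 ± 1.65 CPM (SD, n = 2) in unloaded and 56.4 ± 3.802 CPM (SD, n = 2) in loaded cells, 1.56 times higher. Replicates differed by 0.09 and 0.14 on the log2 scale, far less than the groups. The log2 fold change was 0.64 (standard error 0.103, 95% interval 0.39 to 0.89).

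The call for *Nr1d1* depended on the tool and its settings. The adjusted p = 0.0639 with edgeR's quasi-likelihood test, where the gene ranked 189 by p among 16269. By contrast, the adjusted p = 0.000325 with DESeq2 and 0.00293 with edgeR's exact test. Within the quasi-likelihood test the adjusted p was 0.0336 with a robust fit and 0.0438 with at least 10 counts in every library. Without a filter on low counts it was 0.119. Omitting single libraries gave log2 fold changes between 0.57 and 0.71, with edgeR adjusted p between 0.12 and 0.191. The 3′ end of *Nr1d1* overlaps that of *Thra*, a thyroid hormone receptor gene on the opposite strand, and both genes share 263 exon bases, 8.55% of those of *Nr1d1*. Strandedness of the counting is not given in the sources used here. *Thra* had 34.9, 43.3, 41.5 and 34.8 CPM in the same order of libraries, which overlapped between the groups (log2 fold change -0.04, edgeR adjusted p = 0.942). The promoter stretch of *Nr1d1*, chr11:98775378-98775627 on the minus strand, is shown because this gene differed most, and it held an E-prime box at bases -28 to -23.
*Nr1d1*: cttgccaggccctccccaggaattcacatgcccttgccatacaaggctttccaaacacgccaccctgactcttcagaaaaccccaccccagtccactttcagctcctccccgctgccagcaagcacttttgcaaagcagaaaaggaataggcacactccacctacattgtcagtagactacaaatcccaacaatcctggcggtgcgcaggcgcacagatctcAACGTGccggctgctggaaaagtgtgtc

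*Nr1d2* (ENSMUSG00000021775.11), at chromosome 14, bases 18204054 to 18239127, minus strand, encodes REV-ERBβ, which overlaps in function with REV-ERBα. It had 2615, 2611, 2820 and 2655 counts, or 90.0, 86.2, 87.4 and 89.1 CPM. Its groups overlapped, with a log2 fold change of 0.00 and a 95% interval of -0.19 to 0.20, which does not reach the fold change of *Nr1d1*.

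*Dbp* (ENSMUSG00000059824.12), at chromosome 7, bases 45705088 to 45710203, plus strand, encodes a PAR bZIP transcription factor and is among the most strongly cycling outputs of the clock in many tissues. It was the least expressed member, with 81 and 145 counts in the unloaded and 117 and 117 counts in the loaded libraries, or 2.79, 4.78, 3.63 and 3.93 CPM. The unloaded replicates differed by 0.76 on the log2 scale and enclosed both loaded values. The log2 fold change was -0.01 with a 95% interval of -0.78 to 0.77, so a change of the size seen in *Nr1d1* was not detectable in this gene. *Dbp* shares 539 exon bases, 18.01% of its own, with *Sphk2* on the opposite strand, which had 683, 766, 530 and 793 counts. Since strandedness is not given, the counts of *Dbp* may hold reads of *Sphk2*, and their part in its level and fold change was not tested.

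**Figure D2:**
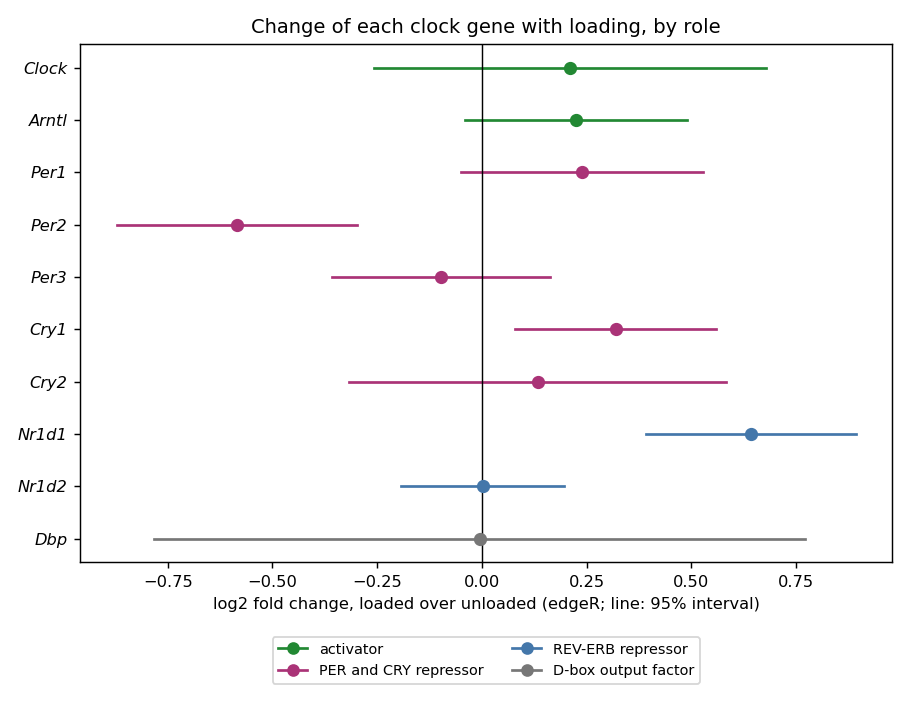
Log2 fold change of each clock gene, loaded over unloaded (edgeR, 2 libraries per group), with its 95% interval, coloured by role in the loop. The intervals of *Per2* (-0.87 to -0.30), *Cry1* (0.08 to 0.56) and *Nr1d1* (0.39 to 0.89) exclude 0 before adjustment, and repressors lie on both sides of 0.

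Activators and repressors did not separate in opposite directions as classes. Both activators had a log2 fold change above 0, and so had 5 of the 7 repressors when the REV-ERB genes were counted with them. Of all tested genes, 48.5% were above 0. Among these repressors *Nr1d2* lay at 0.00. The signs of *Clock*, *Cry2* and *Nr1d2* turned when certain single libraries were left out, so this count of signs is not fixed. The mean log2 CPM of the 2 activators was 6.40 and 6.17 in the unloaded and 6.37 and 6.65 in the loaded libraries. The mean of the 5 PER and CRY genes was 4.57 and 4.68 in the unloaded and 4.68 and 4.57 in the loaded libraries. The groups differed by 0.00, as *Per2* and *Per3* on one side and *Cry1*, *Per1* and *Cry2* on the other cancelled. The activator mean minus the PER and CRY mean was 1.83 and 1.49 in unloaded and 1.69 and 2.07 in loaded libraries. These values overlapped, and the group means differed by 0.22, less than the SD of either group (0.245 and 0.275). With the REV-ERB genes among the repressors the difference was 0.13, also within the SD of either group (0.225 and 0.237). The library-to-library spread of *Clock* entered the activator mean and both differences.

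Values on opposite sides of 0 lay within the repressors, and they were followed in ratios of CPM per kilobase of annotated exon within each library, which do not depend on the scaling between libraries. The pairs were chosen with the values known, and several share *Per2*, so the ratios are given as a description with no test. *Per2* lay lower and *Per1*, *Nr1d1*, *Cry1* and *Arntl* lay higher in both loaded libraries, so their ratios over *Per2* could not overlap. The ratio of *Per1* to *Per2* was 0.909 and 0.986 in the unloaded and 1.69 and 1.67 in the loaded libraries. These values did not overlap. The ratio of *Nr1d1* to *Per2*, both direct targets of CLOCK and BMAL1, was 3.12 and 3.20 in the unloaded and 6.94 and 7.87 in the loaded libraries. The ratio of *Cry1* to *Per2* was 3.56 and 3.57 in the unloaded and 6.84 and 6.49 in the loaded libraries. The ratio of *Arntl* to *Per2* was 1.32 and 1.32 against 2.13 and 2.52, again without overlap.

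Within the REV-ERB pair the ratio of *Nr1d1* to *Nr1d2* was 0.683 and 0.761 in the unloaded and 1.08 and 1.17 in the loaded libraries. The order of the paralogs turned only per kilobase of merged exon. In CPM *Nr1d2* stayed above *Nr1d1* in the loaded libraries, at 87.4 and 89.1 against 53.7 and 59.1. The ratio of *Nr1d1* to its target *Arntl* was 2.36 and 2.42 against 3.26 and 3.13. The ratio of *Clock* to *Arntl* was 2.97 and 2.001 in the unloaded and 2.30 and 2.58 in the loaded libraries, and that of *Cry1* to *Cry2* was 4.66 and 3.83 against 4.37 and 5.30. Both of the last ratios overlapped between the groups.

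**Figure D3:**
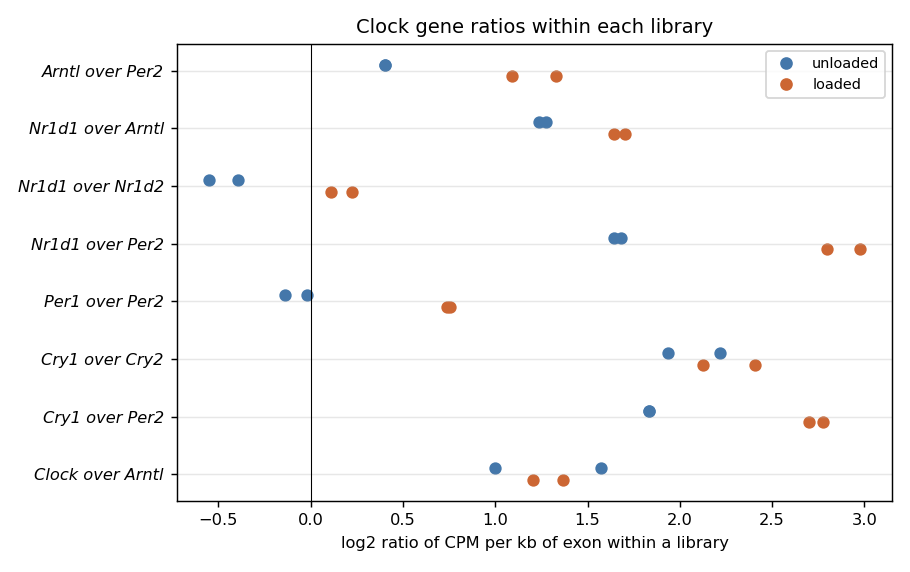
Log2 ratio of CPM per kb of exon between clock genes within each library (blue, unloaded; orange, loaded). The ratios over *Per2* separate the groups, as the values of their genes required. Those of *Nr1d1* to *Nr1d2* and to *Arntl* also separate them, whereas *Clock* over *Arntl* and *Cry1* over *Cry2* overlap.

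Per kilobase of annotated exon, the 10 genes fell in a high and a low set in both groups, with *Arntl* between the sets. The high set held *Nr1d2*, *Cry1*, *Clock* and *Nr1d1*. In unloaded cells, levels were 16.3 ± 0.508 CPM per kb for *Nr1d2*, 13.2 ± 0.379 for *Cry1*, 12.2 ± 3.06 for *Clock* and 11.7 ± 0.537 for *Nr1d1* (SD, n = 2). *Nr1d2* lay above *Cry1* in the unloaded libraries, whereas *Cry1*, *Clock* and *Nr1d1* overlapped with their neighbours in this order. *Arntl* followed at 4.91 ± 0.128 CPM per kb (SD, n = 2), apart from *Nr1d1* above it and *Per2* below it.

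In the low set, the unloaded levels were 3.72 ± 0.0998 for *Per2*, 3.52 ± 0.296 for *Per1*, 3.16 ± 0.527 for *Cry2*, 2.51 ± 0.0705 for *Per3* and 1.27 ± 0.471 CPM per kb for *Dbp* (SD, n = 2). *Per2*, *Per1* and *Cry2* overlapped with their neighbours. In loaded cells *Nr1d1* was first, at 18.3 ± 1.24 CPM per kb, and *Per2* was at position 8, at 2.48 ± 0.0517 CPM per kb (SD, n = 2). Among all tested genes *Nr1d2* lay at percentile 77.5 of these levels and *Dbp* at percentile 28.0. Exon length was that of all annotated isoforms merged, which can differ from that of the isoforms these cells use.

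Other parts of the clock were read from lists chosen by function. No gene of them passed an adjusted p of 0.01 with edgeR's quasi-likelihood test. None passed with DESeq2 either, among those that received an adjusted p from that tool. Of the 13 other clock transcription factors 12 were tested, with 8 log2 fold changes above and 4 below 0 (48.5% and 51.5% of all tested genes) and a median of 0.11. At an unadjusted p under 0.05, edgeR gave 2 higher and 1 lower gene, against 6.88% and 7.46% of all tested genes. *Rora*, an activator of *Arntl* that competes with REV-ERB, had 5 and 8 counts in the unloaded and 28 and 32 counts in the loaded libraries (log2 fold change 2.13, edgeR adjusted p = 0.195). It received no adjusted p from DESeq2. *Bhlhe41*, a repressor at E-boxes, had 36.2 and 38.0 against 44.0 and 43.0 CPM (log2 fold change 0.23, edgeR adjusted p = 0.341). *Npas2*, which can stand in for *Clock*, had at most 5 counts. *Cipc*, an inhibitor of CLOCK that is named here because 1 library stood apart, had 1022 and 161 counts in the unloaded and 1267 and 972 counts in the loaded libraries.

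Of 19 kinase, phosphatase and ubiquitin ligase genes that act on clock proteins, 18 were tested. Their log2 fold changes were above 0 in 16 and below 0 in 2 (48.5% and 51.5% of all tested genes), with a median of 0.10. In edgeR, 2 higher and no lower genes had an unadjusted p under 0.05 (6.88% and 7.46% of all tested genes). *Gsk3b*, a kinase of several clock proteins, had 55.0 and 62.3 CPM in the unloaded and 168 and 83.1 CPM in the loaded libraries, so that its difference was set largely by loaded replicate 1 (log2 fold change 1.10, edgeR adjusted p = 0.19). *Prkaa2*, a catalytic subunit of AMPK, which marks CRY proteins for degradation, had 30.7 and 29.4 against 35.5 and 37.6 CPM (log2 fold change 0.28, edgeR adjusted p = 0.277). *Ppp5c*, a phosphatase that acts on casein kinase 1, followed with a log2 fold change of 0.19. The casein kinase genes *Csnk1d* and *Csnk1e*, whose products phosphorylate PER proteins, had log2 fold changes of 0.00 and 0.04.

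All 12 cofactor genes were tested, 5 with log2 fold changes above and 7 below 0 (48.5% and 51.5% of all tested genes) and a median of -0.05. At an unadjusted p under 0.05, edgeR gave 2 lower and no higher genes, against 7.46% and 6.88% of all tested genes. *Thrap3*, a coactivator of CLOCK and BMAL1, had 263 and 252 against 227 and 201 CPM (log2 fold change -0.27, edgeR adjusted p = 0.216). *Kmt2a*, a histone methyltransferase, had a log2 fold change of -0.21 and *Crebbp*, a histone acetyltransferase, one of 0.18.

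Of 22 listed output genes of the clock 21 were tested, 12 with log2 fold changes above and 9 below 0 (48.5% and 51.5% of all tested genes) and a median of 0.03. At an unadjusted p under 0.05 in edgeR, 2 were higher and 2 lower, against 6.88% and 7.46% of all tested genes. *Dtx4* had 46.0 and 49.2 against 31.5 and 35.4 CPM (log2 fold change -0.51, edgeR adjusted p = 0.122, DESeq2 adjusted p = 0.0232). *Klf9*, a repressor driven by the clock and by glucocorticoids, had 40.3 and 39.0 against 55.0 and 48.6 CPM (log2 fold change 0.38, edgeR adjusted p = 0.187). *Fbxl20* had a log2 fold change of -0.32. The D-box factors *Tef* and *Hlf*, which act with DBP, had log2 fold changes of -0.01 and 0.10.

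**Figure D4:**
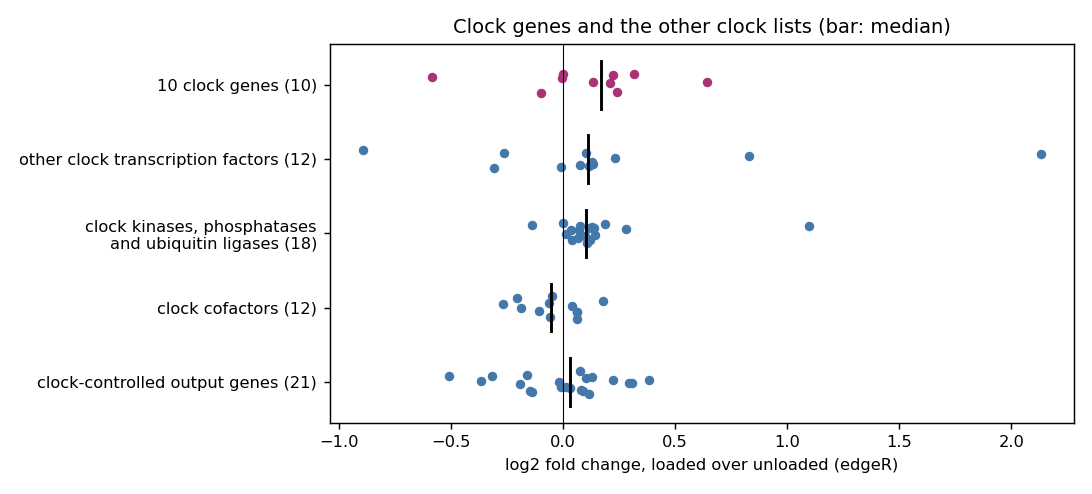
Log2 fold change (loaded over unloaded, edgeR) of the 10 clock genes and of the tested genes of 4 other clock lists, with the number tested in brackets. Each point is a gene, the bar is the median of its list, and the medians lie between -0.05 and 0.17, beside -0.01 over all tested genes.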

How the data were processed

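Gene counts of 2 unloaded and 2 loaded MLO-Y4 cultures were analysed. Ribosomal RNA was depleted before library construction. According to the methods and processing notes, the authors mapped filtered reads to mm10 with HISAT2 2.1.0, assembled transcripts with StringTie 1.3.5 and converted coverage to raw counts per gene with the prepDE script of StringTie, which the deposited table holds as whole numbers without normalization. That conversion uses a read length, which is not given in the sources used here, and a wrong value would scale all counts alike. All 55450 identifiers matched GENCODE M21.

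Genes were filtered with filterByExpr (count minimum 10), TMM-normalized and tested with edgeR 4.0.16 (glmQLFit, glmQLFTest) in R 4.3.3, with Benjamini-Hochberg adjustment over 16269 genes and the threshold of 0.01. DESeq2 1.42.0 and limma 3.58.1 were alternatives. The standard error is the log2 fold change divided by the square root of F, and its interval uses the t distribution. Log2 CPM values carry a prior count of 2. Floors and counts cover counting error only. The procedure was tested on simulated data. Total counts were 28941994 to 32185693 per library.

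The clock genes, lists, pairs and tests were chosen with earlier results of these data known. All 10 members are named, and in each clock list the 3 genes with the smallest p, genes called by either tool and genes overlapping a member. Other named genes, chosen after their values were seen, were *Npas2*, *Cipc*, *Csnk1d*, *Csnk1e*, *Tef*, *Hlf*, *Fkbp5*, *Dusp1*, *Tsc22d3*, *Egr2*, *Ier2* and the cell type markers. The result of 1 gene that the rule names is not reported here.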

Additional observations from a re-analysis of the deposited data

How the results depend on the processing

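No clock gene was called lower under any alternative run, and *Nr1d1* was called higher with DESeq2 (1 gene) and edgeR's exact test (1 gene) and under no other. The number of genes called higher and lower across all genes was 2 and 14 with the quasi-likelihood test, 170 and 193 with DESeq2, 103 and 173 with the exact test, 4 and 25 with at least 10 counts in every library, 11 and 46 with the robust fit, 0 and 0 without a filter and 55 and 92 at an adjusted p under 0.05. The cause of these differences was not tested. Adding a block for replicate number gave 0 and 0 genes with edgeR and 63 and 95 with DESeq2. The labels do not say whether same-numbered libraries were paired. Deviations of same-numbered libraries from the group means correlated at -0.057 across genes, but a single correlation over all genes cannot decide the pairing. With the block *Nr1d1* had an adjusted p of 0.122 in edgeR and 0.0287 in DESeq2. Leaving out each library in turn, where the lone library is assumed to vary like the other group, gave 0 to 18 higher and 0 to 25 lower genes, with 18 and 25 without unloaded replicate 1, 14 and 24 without unloaded replicate 2 and 0 without either loaded replicate. The log2 fold changes then ranged from -0.026 to 0.50 for *Clock*, -0.079 to 0.32 for *Cry2*, -0.33 to 0.44 for *Dbp* and -0.029 to 0.042 for *Nr1d2*, so their directions were not fixed. *Clock* turned without unloaded replicate 2 (-0.026), *Cry2* without unloaded replicate 1 (-0.020) or loaded replicate 1 (-0.079), *Nr1d2* without unloaded replicate 2 (-0.029) or loaded replicate 2 (-0.011), and *Dbp* without unloaded replicate 2 (0.44) or loaded replicate 1 (0.051). That of *Dbp* was also above 0 with DESeq2 (0.0027), RLE factors (0.0048), limma-voom (0.037) and the block (0.041 in edgeR, 0.051 in DESeq2). *Arntl*, *Per1*, *Per2*, *Per3*, *Cry1* and *Nr1d1* kept their sign under all alternatives run, with *Per2* between -0.61 and -0.56 over the libraries left out, *Arntl* between 0.12 and 0.32, *Per1* between 0.16 and 0.33 and *Per3* between -0.14 and -0.06. The activator minus repressor difference lay between 0.03 and 0.42 over the libraries left out. With 2 libraries per group, an exact permutation test of a single value cannot give a two-sided p below 0.333.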

Other observations

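Genes of the signals that reset *Per1* in cultured cells were read from 2 further lists. Of 11 tested targets of the glucocorticoid receptor, 7 had log2 fold changes above and 4 below 0 (48.5% and 51.5% of all tested genes), with a median of 0.09. *Sgk1*, a kinase gene, had 73.6 and 74.0 CPM in the unloaded and 119.9 and 107 CPM in the loaded libraries (log2 fold change 0.62, edgeR adjusted p = 0.0477, DESeq2 adjusted p = 4.1e-06). *Nfkbia*, which is also a target of NF-kB, had 213 and 227 against 163 and 145 CPM (log2 fold change -0.51, edgeR adjusted p = 0.0643, DESeq2 adjusted p = 2.83e-05). *Klf9*, *Dusp1* and *Tsc22d3* had log2 fold changes of 0.38, 0.32 and 0.31 with edgeR adjusted p between 0.187 and 0.299, and *Fkbp5*, named after its value was seen, had -0.17.

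All 16 genes of the CREB and serum response list were tested, 7 with log2 fold changes above and 9 below 0 (48.5% and 51.5% of all tested genes) and a median of -0.09. *Sik1*, a kinase gene induced by CREB that restrains resetting of the clock, had 50.2 and 54.2 CPM in the unloaded and 31.1 and 34.9 CPM in the loaded libraries (log2 fold change -0.66, edgeR adjusted p = 0.0663, DESeq2 adjusted p = 0.000627). The immediate early genes *Egr2* and *Ier2* had log2 fold changes of -1.25 and 0.40, with edgeR adjusted p = 0.187 and 0.203.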
